A study of Setaria viridis with 5 samples.

Results

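In leaves of the shr2 mutant of Setaria viridis, 8 genes were lower than in the wild type in every library by a clear margin. They were chosen by their levels in these same libraries. Counts of all cell barcodes were summed per library and divided by the library total, which gave counts per 1000000 (CPM). A gene was kept when its mean over the 5 libraries was at least 10 CPM. It was selected when its lowest wild-type CPM was at least 2 times its highest shr2 CPM. Of 35214 listed genes, 7284 were kept and 8 were selected, which is 0.11% of the genes kept. The mirrored rule, with shr2 higher, selected 12 genes, or 0.165%. Because the shr2 and wild-type levels chose the genes, their differences between the genotypes are given below as a description, with no test.

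RNA of single cells was sequenced from protoplasts, cells whose walls had been digested away, from the middle section of the leaf of 4-week-old plants of strain A10. The shr2 group had 2 libraries and carried a CRISPR loss-of-function allele of SHORT ROOT, per the series' design, and the wild-type group of the same strain and age had 3. The labels call the replicates independent, do not say how many plants or mutant lines each stands for, and speak of 3 per genotype. The third of shr2 is not analysed here. RNA was captured in droplets with the 10x Genomics 3′ chemistry, in which a barcode marks the cell and a short tag, the unique molecular identifier (UMI), marks the molecule, so a count is a count of tagged molecules.

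SHORT ROOT is a transcription factor of the GRAS family. In Arabidopsis it is made in the vascular tissue of the root, moves into the neighbouring cell layer and is needed for the identity of the endodermis. Setaria viridis is a C4 grass, whose leaves fix carbon first in mesophyll cells and then in the bundle sheath cells around the veins, and the study asked how SHORT ROOT sets cell identities in such a leaf. The 8 genes carry only Sevir identifiers, and 0 of the 35214 identifiers matched the 34587 genes of the RefSeq table for the assembly Setaria_viridis_v4.0. No gene therefore has a name, a product or a known role here, and the targeted gene could not be checked against the genotype labels.

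The libraries held between 45450710 and 86869180 UMIs in 4730 to 10673 barcodes. The libraries did not sort by genotype as a whole. Wild-type replicates 2 and 3 lay close together, with an SD of the log2 ratio over kept genes of 0.118, while the other pairs lay between 0.44 and 0.831 apart, and wild-type replicate 1 was nearest to shr2 replicate 1. Between 8 and 19 cell barcodes were shared by any pair of libraries. With wild-type replicates 2 and 3 summed to 1 library, the rule selected 9 genes, among them all 8 described here. Without wild-type replicate 1 it selected 95, and all 8 were again among them. Neither change can narrow the gap of a gene, so the 8 could be lost only through the 10 CPM minimum. A difference in the sums of a library can come from fewer cells of a type or from less RNA of the gene per cell, and in the sums these cannot be told apart.

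Summed over the 8 genes, shr2 replicates 1 and 2 had 84.7 and 91.5 CPM, against 253, 267 and 260 CPM in wild-type replicates 1, 2 and 3. The median log2 difference of the 8 genes, shr2 minus wild type, was -1.42, with a range from -2.23 to -1.16. Over all 7284 kept genes the median was 0.11, with the 5th and 95th percentiles at -0.80 and 0.72. Of the kept genes, 783 (10.7%) were lower in shr2 without overlap between the libraries, and 79 (1.08%) with a gap of at least 1.5 times. The genes were of modest abundance. Their means over the 5 libraries ran from 12.6 to 39 CPM, the median kept gene had 32.6 CPM, and 3213 kept genes lay above the most abundant of the 8.

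Sevir.9G152200 had the widest gap. It had 7.53 and 6.30 CPM in shr2 replicates 1 and 2, from 578 and 393 counts, against 37.6, 29.9 and 31.2 CPM in wild-type replicates 1, 2 and 3, from 3270, 1559 and 1417 counts. Its mean was 6.92 ± 0.871 CPM in shr2 (SD, n = 2) and 32.9 ± 4.15 CPM in the wild type (SD, n = 3), so that 21% of the wild-type level was left in shr2. The lowest wild-type library stood 3.97 times above the highest shr2 library, and the log2 difference was -2.23.

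Sevir.4G302500 was the least abundant of the 8 genes. It had 4.44 and 3.94 CPM in the shr2 libraries, against 19.7, 17.8 and 17.1 CPM in the wild-type libraries. The gap between the genotypes was 3.85-fold, and 23% of the wild-type level was left in shr2. Sevir.9G001000 had 12.8 and 10.8 CPM in shr2 and 46.3, 52.5 and 48.8 CPM in the wild type, a gap of 3.62-fold with 24% of the wild-type level left. These 3 genes stood apart from the other 5, whose gaps all lay between 2.00-fold and 2.12-fold.

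Among these 5, Sevir.9G008600 had the largest log2 difference, -1.58, and the widest scatter between replicates. It had 11.7 and 16.9 CPM in shr2 replicates 1 and 2, against 35.6, 49.7 and 42.7 CPM in wild-type replicates 1, 2 and 3. Sevir.9G118700 was the most abundant of the 8, with 21.2 and 23.6 CPM in shr2 and 52.2, 48.4 and 49.6 CPM in the wild type. In both genes every shr2 library lay well below every wild-type library, and in Sevir.9G118700 the libraries of each genotype were within 1.11-fold of each other in shr2 and 1.08-fold in the wild type.

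Sevir.3G099600 had 7.44 and 8.72 CPM in shr2, against 18.5, 19.6 and 20.5 CPM in the wild type, and 41.3% of the wild-type level was left. Sevir.8G082900 had 9.33 and 9.49 CPM in shr2, against 19.6, 23.4 and 22.7 CPM in the wild type. Sevir.1G199900 had 10.3 and 11.8 CPM in shr2, against 23.6, 25.4 and 27.6 CPM in the wild type. All 3 kept between 41.3% and 43.2% of their wild-type level in shr2, and no library of one genotype reached the levels of the other.

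The limit of 2-fold fell within a graded series of genes. Just inside it were Sevir.1G199900, with a gap of 2.00-fold, and Sevir.9G118700, with 2.05-fold. Just outside were Sevir.3G415300, with a gap of 1.97-fold, and Sevir.9G026700, with 1.94-fold. Sevir.3G415300 was more abundant than any selected gene, with 133 and 212 CPM in shr2 and 418, 430 and 444 CPM in the wild type. Replicates of the selected genes scattered little, with a median ratio of highest to lowest library of 1.16 in shr2 and 1.16 in the wild type, against 1.26 and 1.38 over all kept genes. A rule that asks for a gap favours genes with little scatter.

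**Figure D1:**
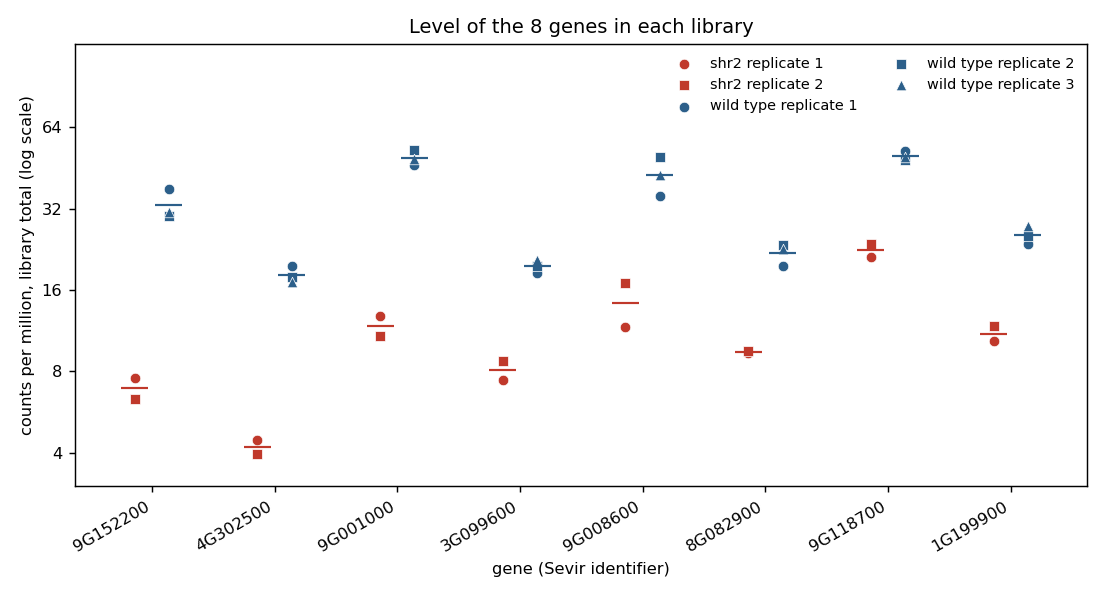
Level of each of the 8 genes, in CPM of the library total on a log scale, for the 2 shr2 libraries (red) and the 3 wild-type libraries (blue), with bars at the group means. The 3 genes on the left have gaps of 3.62-fold to 3.97-fold between the genotypes, and the 5 on the right gaps of 2.00-fold to 2.12-fold.

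The scaling of the library totals parted these 3 genes from the other 5. With TMM-scaled totals, which allow for differences in RNA composition, the gaps of Sevir.9G152200, Sevir.4G302500 and Sevir.9G001000 were 4.84-fold, 4.37-fold and 3.71-fold. Those of the other 5 genes were under the limit, between 1.75-fold for Sevir.1G199900 and 1.94-fold for Sevir.9G118700. TMM moved the median log2 difference of all kept genes from 0.11 to 0.02. All 8 genes stayed lower in shr2 without overlap under this scaling and with median-of-ratios size factors, where the 5 gaps were 1.72-fold to 1.90-fold. With TMM, 836 of the 7284 kept genes were lower without overlap. The TMM factors lay between 0.919 and 1.12, too close together to undo a gap of 2-fold.

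Shares of cells with a UMI were compared next. Cells differ in depth, with a median of 6837 and 11123 UMIs in shr2 replicates 1 and 2 and of 9788, 10120 and 9734 in wild-type replicates 1, 2 and 3, so each cell with at least 2000 UMIs was thinned to 2000 and shallower cells were left out. This left out 1129 and 403 shr2 cells and 643, 582 and 531 wild-type cells. The median share of cells with a UMI over the 8 genes was then 2.03% and 2.21% in the shr2 libraries, against 5.99%, 5.87% and 6.10% in the wild-type libraries. The median kept gene was seen in 6.37% and 5.71% of shr2 cells and in 6.27%, 5.50% and 5.45% of wild-type cells, so in the wild type the shares were near those of a typical gene. Without thinning the medians were 7.84% in shr2 and 22.3% in the wild type.

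Sevir.9G152200 was seen in 1.46% of thinned cells of shr2 replicate 1 (95% exact binomial interval 1.23% to 1.72%) and in 1.36% of shr2 replicate 2 (1.05% to 1.72%). In wild-type replicates 1, 2 and 3 the shares were 7.73% (7.15% to 8.35%), 6.47% (5.77% to 7.21%) and 6.36% (5.64% to 7.14%). Intervals cover counting error only. The shr2 share was thus 0.205 times the wild-type share, the smallest ratio of the 8 genes. The largest was 0.464, for Sevir.9G118700, which was seen in 4.32% and 4.66% of shr2 cells and in 9.98%, 9.22% and 9.84% of wild-type cells. For all 8 genes the highest shr2 share lay below the lowest wild-type share. That count was not made over all kept genes, and the 8 genes were chosen as lower in these libraries.

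Before thinning, cells with a UMI of a gene held fewer of its UMIs in every shr2 library than in any wild-type library for 7 of the 8 genes. The exception was Sevir.4G302500, with 1.05 and 1.17 UMIs per such cell in shr2 and 1.18, 1.16 and 1.15 in the wild type. The genes were chosen as lower in these libraries, and the same count over all kept genes was not made. Sevir.9G001000 had 1.19 UMIs per such cell in shr2 and 1.52 in the wild type. Sevir.9G118700 had 1.35 in shr2 and 1.71 in the wild type. Most such cells held a single UMI, between 71.8% and 95.4% of them in shr2 and between 59.8% and 86.8% in the wild type, so the number per cell says little beyond the share. Free RNA in the droplets can also give a UMI to a cell that does not express the gene, and no cell type that should lack the genes could be named.

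Within the wild type, the 8 genes fell into cells in different ways. For each pair of genes, the number of thinned cells with both was divided by the number expected from the share of each gene. A ratio of 1 means that the genes were seen together as often as their shares alone give. The median over the 28 pairs was 1.47, 1.72 and 1.55 in wild-type replicates 1, 2 and 3, while the median over all pairs of kept genes was 0.998, 1.00 and 0.999. In the wild-type libraries, 5% of all pairs lay above 1.43, 1.54 and 1.54.

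A grouping by the correlation of counts over wild-type cells set 6 of the genes apart, namely Sevir.9G152200, Sevir.3G099600, Sevir.9G008600, Sevir.8G082900, Sevir.9G118700 and Sevir.1G199900. The group was the same at linkage distances of 0.95 and 0.9. At 0.8 it held 4 genes, and Sevir.9G152200 and Sevir.1G199900 stood alone. Within these 6, the 15 pairs were seen together more often than expected in every wild-type library, with ratios from 1.32 to 3.34 and a median of 2.10. Since the grouping used the same wild-type cells, these values describe it. The shr2 cells were not used in the grouping. There, 274 and 188 occurrences of a pair in a cell were seen in replicates 1 and 2, against 75.4 and 51.4 expected, which gives ratios of 3.63 and 3.66. The same sums gave 2.27, 2.20 and 2.19 in wild-type replicates 1, 2 and 3. They take in all 15 pairs, while 7 ratios of single pairs in the shr2 libraries reached 5 expected cells. The median correlation of these pairs went the other way, with 0.123 in shr2 and 0.180 in the wild type.

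By the median over the wild-type libraries, the highest ratio was that of Sevir.8G082900 with Sevir.9G118700, with values of 3.13, 3.34 and 2.75. In wild-type replicate 1 the pair of Sevir.3G099600 and Sevir.9G008600 lay above it, at 3.32, and in replicate 3 that of Sevir.9G008600 and Sevir.8G082900, at 2.97. Sevir.9G118700 had the highest mean correlation to the rest of its group, 0.234, followed by Sevir.9G008600 with 0.208 and Sevir.8G082900 with 0.196. Correlations of single pairs over wild-type cells were small in these sparse counts, between 0.0861 and 0.283 within the 6 genes. They are a description over cells that share a library and a range of depths.

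Sevir.4G302500 and Sevir.9G001000 stood outside the group. Pairs of 1 of these and 1 of the 6 had a median ratio of 0.661 in the wild-type libraries, with a range from 0.247 to 1.15, and 3 of the 36 values were above 1. The lowest pair median belonged to Sevir.4G302500 with Sevir.3G099600, at 0.435. Sevir.4G302500 and Sevir.9G001000 had ratios with each other of 1.10, 0.809 and 0.839 in wild-type replicates 1, 2 and 3, on either side of 1, and correlations over cells of 0.0216, 0.0536 and 0.0578. In shr2 cells the pairs across the groups had 30 and 22 joint occurrences against 43.7 and 25.9 expected, and the counts of the other two genes together, 0 and 2 cells, were too few to read.

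**Figure D2:**
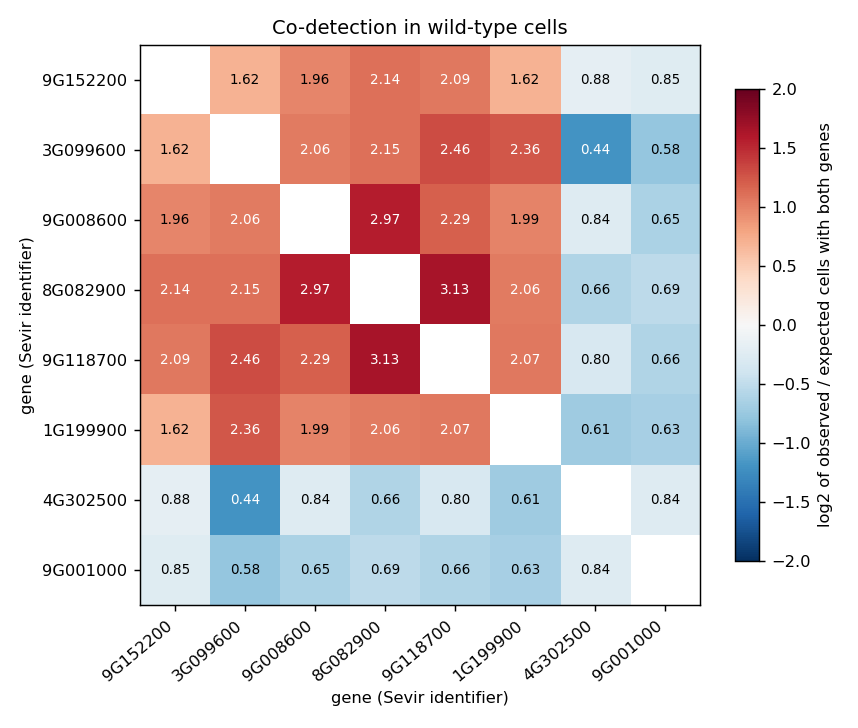
Cells with both genes of a pair over the number expected from the share of each gene, as the median of the 3 wild-type libraries after thinning to 2000 UMIs, written in each square and coloured by its log2. The 6 genes at the upper left have ratios above 1 with each other and below 1 with the other two, whose own ratio is 0.84.

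To see in which cells the genes lay, the 34296 barcodes were clustered without the 8 genes, with neighbours drawn from every library. Of 17 clusters, numbered by size, 13 were used, each with 50 cells or more from every library, and these held 96.5% of the barcodes. No cluster was given a cell type, because no marker gene could be identified. The cells of the smaller clusters differed in depth, with a median of 3890 UMIs in cluster 11, 3015 in cluster 12 and 1342 in cluster 13, against 11659 in cluster 1 and 9476 in cluster 7.

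The 6 co-detected genes were concentrated in clusters 12, 13, 7 and 11 in both genotypes. Summed over the 6 genes, cluster 12 had 917 and 745 CPM in the shr2 libraries and 1387, 995 and 1008 CPM in the wild-type libraries. Cluster 13 had 495 and 459 CPM in shr2 and 1107, 816 and 871 CPM in the wild type. In cluster 1, the largest, the 6 genes together reached 29 and 29.7 CPM in shr2 and 71.9, 63.9 and 62.2 CPM in the wild type. The genes were thus high in the same few clusters in every library, and in these clusters too each shr2 library lay below each wild-type library.

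Sevir.8G082900 was the most concentrated. In the wild type its mean was 77.4 times as high in cluster 12 as in cluster 2. In cluster 12 it had 248 and 141 CPM in shr2 and 278, 182 and 183 CPM in the wild type, so there the genotypes overlapped. In cluster 2 it had 1.40 and 1.03 CPM in shr2 and 2.20, 3.64 and 2.47 CPM in the wild type. Sevir.9G118700 reached the highest level of any of the 8 genes, with 304 and 258 CPM in cluster 12 of shr2 and 434, 322 and 335 CPM in that of the wild type, and its wild-type mean was 26.1 times as high there as in cluster 1.

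Sevir.9G152200 was highest in cluster 13 of the wild type. It had 29.2 and 34.8 CPM there in shr2, from 11 counts in each library, against 153, 122 and 110 CPM in the wild type. In cluster 1, where it was lowest, it had 4.66 and 3.67 CPM in shr2 and 18.0, 13.9 and 15.7 CPM in the wild type. For the shares by cluster, cells were thinned to 1000 UMIs, not to 2000. The share of cells with a UMI in cluster 13 was then 3.50% and 4.07% in shr2 and 11.2%, 13.7% and 11.8% in the wild type. In cluster 12 it was 5.38% and 9.02% in shr2 and 22%, 8.64% and 9.03% in the wild type, where the genotypes overlapped and wild-type replicate 1 stood apart. The mean share was lowest in cluster 1, with 0.171% in shr2 and 1.28% in the wild type.

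Sevir.9G001000 and Sevir.4G302500 were distributed differently. In the wild type their sum was highest in cluster 8, with 20.9 and 14.1 CPM in shr2 and 88.1, 101 and 89.6 CPM in the wild type. Among the shr2 libraries, replicate 2 had its highest sum in cluster 2, at 20.2 CPM. In cluster 12 the sum was 0 and 2.58 CPM in shr2, from 0 and 2 counts, and 24.8, 19.4 and 20.7 CPM in the wild type. The gap of Sevir.4G302500 varied between clusters. In cluster 3, where its wild-type level was highest, it had 2.33 and 1.54 CPM in shr2, from 20 and 10 counts, against 31.0, 25.4 and 25.3 CPM in the wild type, a gap of 10.9-fold. In cluster 6, where its shr2 level was highest, it had 7.66 and 11.6 CPM in shr2 and 18.1, 17.8 and 18.8 CPM in the wild type, a gap of 1.54-fold. The gap was 1.04-fold in cluster 11, and in cluster 13, with 1 and 2 counts in shr2, the genotypes overlapped.

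**Figure D3:**
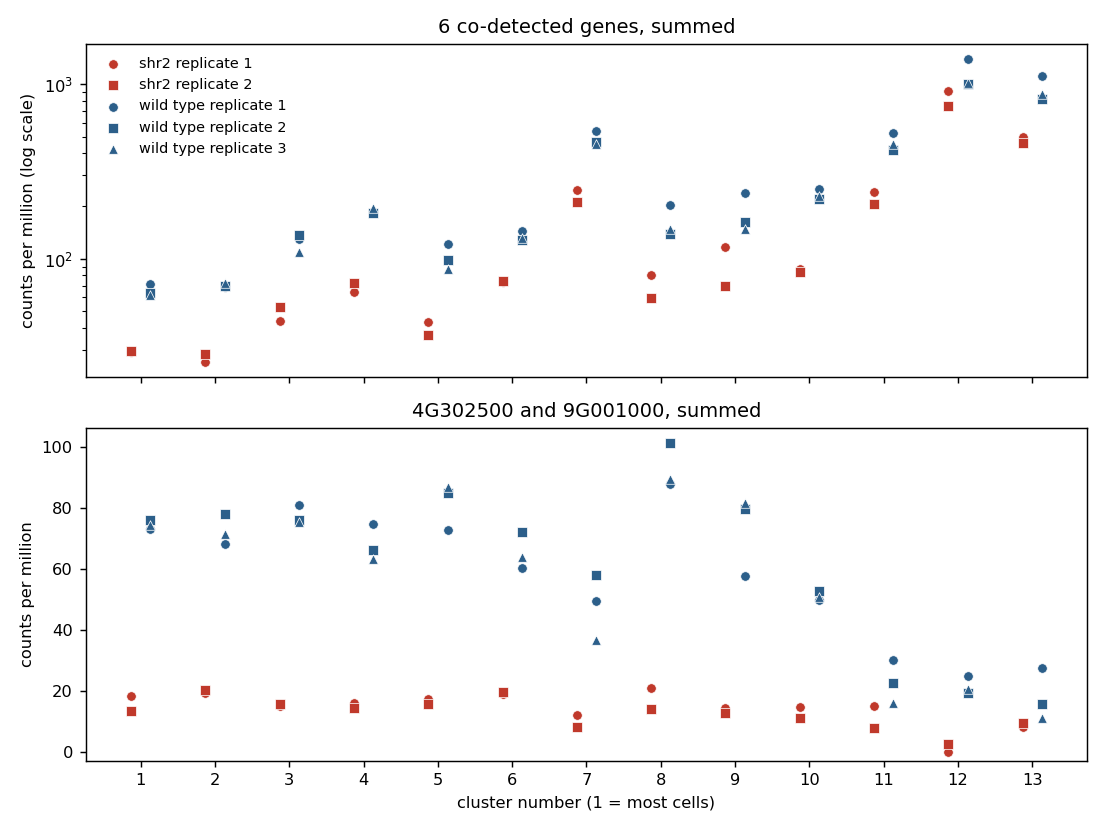
Summed level of the 6 co-detected genes (upper panel, log scale) and of Sevir.4G302500 and Sevir.9G001000 (lower panel, linear scale), in CPM, in each of the 13 clusters and each library, with shr2 in red left of the wild type in blue. The 6 genes are highest in clusters 12 and 13, and in the wild type the other two lie between 11 and 30.1 CPM in clusters 11, 12 and 13 and above that in the other clusters.

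The counts of the clusters are parts of the sums that chose the genes. Lower levels in many clusters therefore follow in part from the choice, and the counts below describe it. Of the 104 pairs of a gene and a cluster, 96 were lower in shr2 without overlap between the libraries, and 46 had a gap of at least 2-fold. Over all kept genes, 9.43% of such pairs were lower without overlap and 0.181% had the gap. Sevir.9G152200 was lower without overlap in all 13 clusters and had the 2-fold gap in 12. Sevir.9G001000 was lower in all 13 with the gap in 11, and Sevir.4G302500 in 12 with the gap in 10.

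The other genes were lower in most clusters but seldom by so much. Sevir.9G008600 was lower without overlap in 13 clusters, with the 2-fold gap in 6. The corresponding counts were 12 and 4 for Sevir.1G199900, 12 and 2 for Sevir.3G099600, 10 and 1 for Sevir.8G082900, and 11 and 0 for Sevir.9G118700. The 8 pairs that overlapped lay in clusters 6, 9, 12 and 13. In cluster 12, Sevir.1G199900 had 85.8 and 93 CPM in shr2 and 104, 81.1 and 97.2 CPM in the wild type, and Sevir.3G099600 had 101 and 63.3 CPM in shr2 and 128, 84.4 and 79.0 CPM in the wild type. In shr2 all 3 of Sevir.1G199900, Sevir.3G099600 and Sevir.8G082900 were highest in cluster 12, and there the genotypes were not apart.

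The share of cells in these clusters also differed between the libraries. Cluster 12 held 1.11% and 2.81% of the barcodes of shr2 replicates 1 and 2, against 2.85%, 6.91% and 6.72% of wild-type replicates 1, 2 and 3, without overlap. Clusters 7, 11, 12 and 13 together, a set chosen after the values were seen, held 11.7% and 17.8% in shr2 and 14.1%, 24.4% and 24.6% in the wild type, where the genotypes overlapped. They held 7.83% and 11.1% of all UMIs in shr2 and 8.22%, 16.2% and 16% in the wild type. They gave 34.5% and 40.4% of the UMIs of the 6 genes in shr2 and 30.5%, 48.6% and 49% in the wild type. Of the UMIs of Sevir.4G302500 and Sevir.9G001000 they gave 5.44% and 5.55% in shr2 and 5.13%, 9.49% and 6.87% in the wild type.

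The levels were therefore also computed with the same cluster weights in every library. The weights were mean shares of cells, whereas the library sums weight a cluster by its UMIs. Clusters of shallow cells, such as 12 and 13, thus counted for more than in the sums. With these weights the 2-fold gap remained for 3 of the 8 genes, and 4 of the 7284 kept genes (0.0549%) had it. Sevir.4G302500 had 4.10 and 3.68 CPM in shr2 and 18.9, 17.1 and 16.3 CPM in the wild type, a gap of 3.97-fold. Sevir.9G001000 had 11.7 and 10.3 CPM in shr2 and 45.3, 50.8 and 47.3 CPM in the wild type, a gap of 3.87-fold. Sevir.9G152200 had 10.7 and 8.27 CPM in shr2 and 47.3, 33.1 and 34.4 CPM in the wild type, a gap of 3.08-fold. The fourth gene was Sevir.9G148300, which the rule had not selected, with a gap of 2.05-fold.

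For the other 5 genes the difference shrank with equal weights but kept its direction, without overlap. The change to equal composition and that from UMIs to cells as weights were not taken apart. How many of all kept genes were lower without overlap with these weights was not counted. The log2 difference of Sevir.8G082900 was -0.57 with equal weights and -1.21 in the plain sums, the largest change, and its gap was 1.09-fold. Sevir.9G118700 had -0.69 with equal weights and -1.16 in the sums. Sevir.3G099600 had -0.85 with equal weights and -1.27 in the sums, and Sevir.1G199900 had -0.90 and -1.20. Sevir.9G008600 had -1.18 with equal weights and -1.58 in the sums, and its gap of 1.98-fold was just under the limit. That of Sevir.9G152200 shrank as well, from -2.23 in the sums to -1.99 with equal weights. For Sevir.4G302500 and Sevir.9G001000 the log2 difference with equal weights, -2.14 and -2.11, was slightly larger in size than the -2.09 and -2.06 of the sums.

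**Figure D4:**
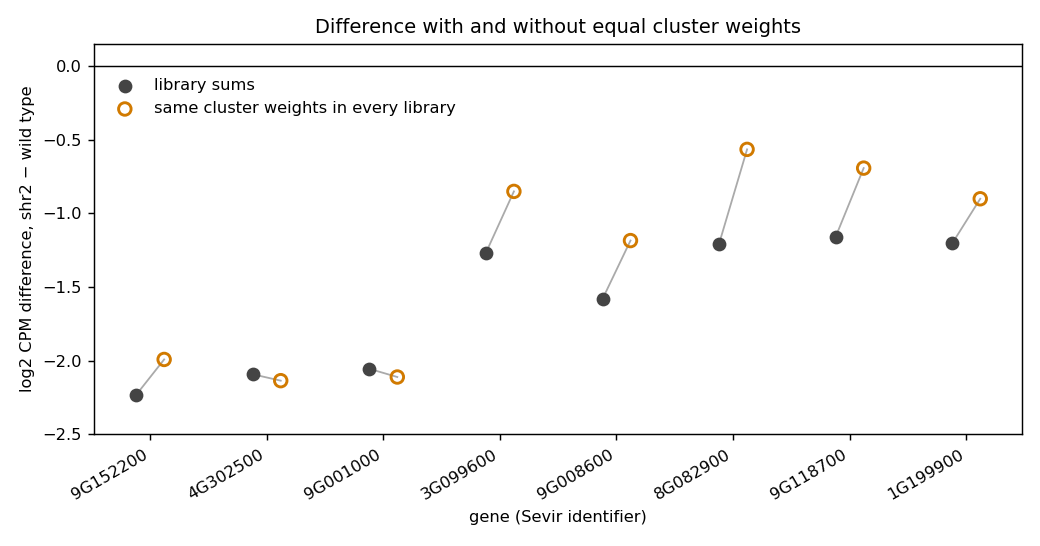
Log2 difference in CPM, shr2 minus wild type, for each of the 8 genes, from the plain library sums (filled circles) and with the same cluster weights in every library (open circles). The difference stays near -2 for the 3 genes on the left, although that of Sevir.9G152200 moves from -2.23 to -1.99. It moves towards 0 for the 5 on the right, to -0.57 for Sevir.8G082900.

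The number before the letter G in an identifier gives its chromosome. Of the 8 genes, 4 were on chromosome 9 (Sevir.9G152200, Sevir.9G001000, Sevir.9G008600 and Sevir.9G118700) and 1 each on chromosomes 1, 3, 4 and 8. Chromosome 9 held 19.5% of the kept genes and 50% of the selected ones (4 of 8, 95% exact binomial interval 15.7% to 84.3%). With a gap of 1.5 times, 17 of 79 genes were on chromosome 9, or 21.5%. No selected genes were next to each other in identifier order. Sevir.9G001000 and Sevir.9G008600 were 76 identifiers apart, and Sevir.9G118700 and Sevir.9G152200 were 335 apart. Identifier order stands in for position here, since no coordinates were used.

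The nearest identifiers on either side were then examined, after the values had been seen. Among the 5 on each side of the 8 genes, 80 in all, 27 were kept genes, and 7 of these were lower in shr2 without overlap, against 10.7% of all kept genes. Of these 7, 4 were neighbours of Sevir.4G302500, whose 5 kept neighbours had a median log2 difference of -0.70. Sevir.4G302500 closed a run of 8 kept genes in a row, from Sevir.4G300900, that were all lower in shr2 without overlap. This was the longest such run in the genome with plain totals, where the next longest had 4 genes. With TMM-scaled totals, a check added after the run was seen, the longest runs had 4 genes, and there were 3 of them. The runs from Sevir.4G300900 to Sevir.4G302000 and from Sevir.4G302200 to Sevir.4G303000 were among them. With that scaling Sevir.4G302500 thus lay inside a run and did not close it.

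Within the run of 8 genes with plain totals, Sevir.4G302500 stood far below its neighbours. The others had log2 differences between -0.29, for Sevir.4G302100, and -0.94, for Sevir.4G300900, against -2.09 for Sevir.4G302500. The gene 2 places beyond it, Sevir.4G302700, was under the 10 CPM minimum and had 0.391 and 0.208 CPM in shr2, against 5.78, 4.57 and 4.53 CPM in the wild type. The first kept gene after it, Sevir.4G303000, overlapped between the genotypes with plain totals.

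The identifier directly after Sevir.9G152200 had a contrary pattern. Sevir.9G152300 had 712 and 429 counts in shr2 replicates 1 and 2, or 9.28 and 6.88 CPM, and 0 counts in each of the 3 wild-type libraries. Against a limit of 3 counts over the wild-type group, or 0.0163 CPM, the pooled shr2 level of 8.20 CPM was at least 504-fold higher. Of all 35214 genes, 1 had at most 3 wild-type counts in all and at least 5 CPM in both shr2 libraries, and it was this one. The reverse, at most 3 shr2 counts and at least 5 CPM in every wild-type library, was found for 0 genes.

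Sevir.9G152300 was seen in 6.21% of the barcodes of shr2 replicate 1 and 7.51% of those of shr2 replicate 2. Within the 13 clusters its level was highest in clusters 12 and 13, with 67.4 and 66.5 CPM in shr2 replicate 1 and 20.7 and 44.3 CPM in shr2 replicate 2. The sum of Sevir.9G152200 and Sevir.9G152300 was 16.8 and 13.2 CPM in shr2, against 37.6, 29.9 and 31.2 CPM in the wild type, so the joint level was lower in shr2 as well. Reads of adjacent or near-identical genes can be split by the counting, and its part in these values was not tested. The identifier after it, Sevir.9G152400, had 213 and 146 CPM in shr2 and 101, 56 and 56.8 CPM in the wild type.

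**Figure D5:**
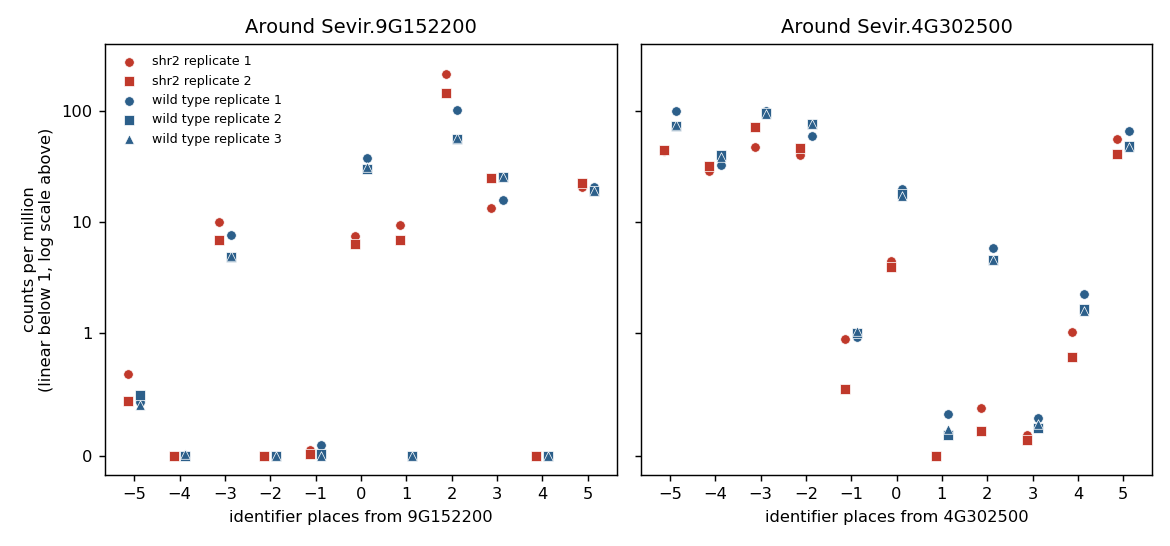
Level of the 5 identifiers on either side of Sevir.9G152200 (left) and Sevir.4G302500 (right), in CPM on a scale that is linear below 1 and logarithmic above, with shr2 libraries in red and wild-type libraries in blue. Sevir.9G152300, 1 place to the right of Sevir.9G152200, is at 0 in all 3 wild-type libraries and at 9.28 and 6.88 CPM in shr2.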

How the data were processed

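The authors deposited, for each of the 5 libraries, gene and barcode lists with a matrix of raw UMI counts per gene and cell, not normalized. Per the file headers the matrices were written by Cell Ranger 5.0.1, and the submitters' processing notes also name Seurat 4.3.0. The genome build, annotation, strand use and cell-calling settings are not given in the sources used here. The lowest barcode had 500 UMIs. The 8 genes, the lists and the checks were chosen with earlier results of these data known.

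Counts of all barcodes were summed per library and scaled to CPM on plain totals (Python 3.11.15, scipy 1.17.1). Log2 differences used CPM plus 0.1. The rule was run on simulated counts with counting error only. Such counts cannot show how often scatter between libraries alone meets the rule. No statistical test of genotype was run. All 8 genes are named. Limits of 3 counts and binomial intervals cover counting error only. The spread between libraries may be technical in part, since the labels do not tie them to separate plants.

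Cells were thinned at random to 2000 UMIs, and to 1000 UMIs for the shares within clusters. Pairs entered the median of co-detection ratios with at least 5 expected cells. Genes were grouped by average linkage at a distance of 0.95. Clusters came from scanpy 1.11.5 and leidenalg 0.10.2: 2000 variable genes without the 8, 30 principal components, 3 neighbours from every library, resolution 1. Equal weights were the mean cell shares over libraries.

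Doublets, barcodes with more than 1 cell, were kept. Scrublet's automatic threshold marked at most 0.0423% of a library and was not used, and an alternative left out the highest-scoring 0.8% per 1000 barcodes. TMM factors came from edgeR 4.0.16 and size factors from DESeq2 1.42.0 in R 4.3.3, for scaling only. Other alternatives changed the CPM minimum, the gap, the UMI minimum, the thinning depth, the clustering and the libraries used.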

Additional observations from a re-analysis of the deposited data

Results flagged for a closer look

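Sevir.9G152300 was under the 10 CPM minimum and so entered none of the comparisons of kept genes. It was singled out because it had a mean of 8.08 ± 1.70 CPM in shr2 (SD, n = 2) and 0 counts in the 3 wild-type libraries, next in identifier order to Sevir.9G152200, the gene with the widest gap among those lower in shr2.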

How the results depend on the processing

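Of 35214 genes, the rule selected 8. It selected 5 with TMM-scaled totals and 5 with size factors, with Sevir.9G152200, Sevir.4G302500 and Sevir.9G001000 among them each time. It selected 4 with a minimum of 20 CPM, 205 with no minimum, 79 with a gap of 1.5 times and 3 with a gap of 3 times. Leaving out 1 library gave 9 to 135 genes: 95 without wild-type replicate 1, 23 without shr2 replicate 1 and 135 without shr2 replicate 2, with the 8 genes among them each time. Fewer libraries make the rule easier to meet, so the 8 genes could be lost only through the CPM minimum. With the replicate block, the gap asked for only between libraries of the same number, it selected 38. All 8 were among them by definition, since the main rule asks for more. Nothing in the labels ties equal numbers to a common day or batch, and there are 2 pairs. The count stayed within 1.5 times of 8 with a minimum of 5 CPM (10), at least 1000 UMIs per barcode (8), wild-type replicates 2 and 3 summed (9), and without the 10 highest genes or the likely doublets (7 each, losing Sevir.1G199900).

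The median log2 difference of -1.42 was -1.51 with TMM and -1.51 with size factors, and -1.61 to -1.25 when 1 library was left out. The median share of cells depends on depth by construction. It was 2.12% in shr2 and 5.99% in the wild type at 2000 UMIs, 1.21% and 3.54% at 1000 UMIs, 4.35% and 12.2% at 5000 UMIs, and 7.84% and 22.3% without thinning. The median co-detection ratio of 1.55 was 1.72 at 1000 UMIs, where fewer pairs reached 5 expected cells, and 1.48 to 1.64 otherwise. With equal cluster weights, 3 or 4 of the selected genes had the gap in each of the 10 alternatives. Over all kept genes the number ran from 3, with doublets left out, to 40, without shr2 replicate 2. The alternative with 15 nearest neighbours whatever their library used 7 clusters, with 44.3% of the cells.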

Other observations

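The stretch of chromosome 9 around Sevir.9G152200 held several other genes that were apart between the genotypes, in both directions. These genes were picked after their values were seen, and no cause was tested. Over all 7284 kept genes, 783 were lower and 1173 higher in shr2 without overlap, so such genes were common elsewhere too. Kept genes of the stretch that were not apart are not listed here. Of the 20 kept genes with a 2-fold gap in either direction, 3 lay within 50 consecutive identifiers here, and no other stretch of that length held more than 2. Sevir.9G149100 had 93.9 and 119 CPM in shr2 and 16.1, 28.7 and 28.2 CPM in the wild type. Sevir.9G151300 had 29.3 and 26.9 CPM in shr2 and 13.3, 13.2 and 12.6 CPM in the wild type. Both were thus higher in shr2, while Sevir.9G152200 between Sevir.9G151300 and Sevir.9G152400 was lower.

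Further genes of the stretch were apart by less or were of low abundance. Sevir.9G150500 had 560 and 730 CPM in shr2 and 184, 310 and 295 CPM in the wild type. Sevir.9G148300 had 30.8 and 17.3 CPM in shr2 and 72.5, 49.7 and 46.2 CPM in the wild type. Sevir.9G148100, under the 10 CPM minimum, had 1.92 and 1.86 CPM in shr2 and 6.32, 6.10 and 6.25 CPM in the wild type.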
